A study of Mus musculus with 10 samples.

Results

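MHC class I molecules carry peptides from inside the cell to its surface, and the 10 genes described here encode their heavy chains, the supply of those peptides and the switch that turns them on. They were taken by symbol from the count table of 21849 genes: H2-K1, H2-D1, H2-T22, H2-T23, Tap1, Tap2, Tapbp, Psmb8, Psmb9 and Nlrc5. All 10 had a row, 9 had enough counts to be tested among 12929 genes, and H2-T23 was listed at 0 in every library. RNA came from tumours that CT26 cells, a colon carcinoma line of BALB/c origin, formed under the skin of BALB/c mice aged 5 weeks at the start. One group of mice ate a diet without arginine and the other a normal diet of equal calories, starting 1 week ahead of the tumour cells. Each group gave 5 libraries, taken here as 5 separate mice. Tumours were taken on day 20, and the groups are called deficient and normal. No genetic change is given for either group, and both carried the same tumour line. Each library is the whole tumour, so fewer cells of a type and less RNA per cell cannot be told apart.

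The proteasome cuts proteins into peptides, the TAP transporter moves the peptides into the endoplasmic reticulum, and tapasin holds empty class I molecules beside the transporter until a peptide binds. Interferon gamma raises the whole set, in part through NLRC5, a protein that binds class I promoters and switches them on. Tumour cells that lose the set can escape CD8 T cells, which read class I. Most of these genes sit together in the major histocompatibility complex. BALB/c mice carry the d haplotype of that complex and the mm10 assembly, from C57BL/6, carries the b haplotype, so the counts are of reads that could be placed on the sequence of another haplotype. That holds for every library alike, and how many reads of the polymorphic genes H2-K1 and H2-D1 were missed was not tested.

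The promoters of classical heavy chains H2-K1 and H2-D1 are shown first, and whether letters they share bear on expression was not tested. They are RefSeq windows on GRCm38.p6, from 250 bases before the start of transcription to 50 after it, printed 5′ to 3′ on the gene's strand. Capitals mark matches on either strand to CCAAT, to TGACG, to GAAA then any 2 bases then GAAA, or to GGGGA then any base then TCCCC, and no matches overlapped. Of 2 windows for H2-K1 the first is printed. The third promoter, of Tap1, is shown because Tap1 and Psmb9 lie head to head and their windows share 275 bases.
H2-K1, chr17:34000298-34000597, minus strand: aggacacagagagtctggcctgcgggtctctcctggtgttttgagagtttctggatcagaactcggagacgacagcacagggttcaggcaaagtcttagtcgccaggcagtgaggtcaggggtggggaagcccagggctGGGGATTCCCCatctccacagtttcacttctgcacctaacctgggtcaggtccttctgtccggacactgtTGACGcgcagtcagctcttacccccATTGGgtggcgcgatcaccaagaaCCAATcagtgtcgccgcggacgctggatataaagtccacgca
H2-D1, chr17:35262844-35263143, plus strand: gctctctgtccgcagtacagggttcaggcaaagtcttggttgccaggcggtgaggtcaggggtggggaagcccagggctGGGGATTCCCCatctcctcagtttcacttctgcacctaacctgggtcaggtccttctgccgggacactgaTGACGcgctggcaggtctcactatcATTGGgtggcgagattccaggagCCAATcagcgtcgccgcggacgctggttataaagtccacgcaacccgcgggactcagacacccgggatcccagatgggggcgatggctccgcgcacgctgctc
Tap1, chr17:34187306-34187605, plus strand: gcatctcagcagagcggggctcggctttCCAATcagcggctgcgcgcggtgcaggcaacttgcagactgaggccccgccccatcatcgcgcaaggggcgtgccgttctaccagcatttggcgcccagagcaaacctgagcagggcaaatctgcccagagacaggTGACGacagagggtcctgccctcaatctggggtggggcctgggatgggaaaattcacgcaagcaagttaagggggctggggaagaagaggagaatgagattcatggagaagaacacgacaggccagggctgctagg

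H2-K1 and H2-D1 each held the GGGGA and TCCCC motif, a form of the site bound by NF-kappaB, which was found in 0.0444% of the 27025 promoter windows searched. Both also held TGACG followed on the same strand by ATTGG with 20 bases between them, and that order with 10 to 30 bases between occurred in 0.799% of windows. TGACG is a core of the X2 box of class I promoters, and ATTGG, which is CCAAT read on the other strand, of the Y box. Of the 8 members with a window, 7 held CCAAT (37.9% of all windows), 5 held TGACG (21.0%) and 2 held the interferon-response core of paired GAAA (3.49%). For CCAAT and TGACG, Tap1 and Psmb9 are counted separately, although their matches are the same sites in the 275 bases their windows share. The paired GAAA was in H2-T22 and H2-T23. Only that exact spelling and spacing was searched, so a window without it is not shown to lack an interferon-response site. A match is a description of these letters in the b haplotype, not a measured site. No window was used for Tap2 and Nlrc5.

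Library totals ran from 12013178 to 31530123 counts, and edgeR's common biological coefficient of variation was 26.5%. Deficient replicate 3 stood apart, with 9.97% of counts from mitochondrial genes against at most 4.44% elsewhere. Its skeletal muscle markers summed to 8795 CPM (counts scaled to the effective library size), against 2158 in deficient replicate 4, 794 in normal replicate 4 and at most 107 elsewhere. Libraries also differed in GC slope, from -0.51 to 0.36 per 10 points of transcript GC content. The GC slope was fitted, together with a slope on log2 gene length, to log2 CPM minus each gene's mean over all libraries. Of 13 markers of colon carcinoma cells 8 were tested, and the list summed to 1290 to 2010 CPM in deficient and 1470 to 1830 CPM in normal tumours. Cd44 and Lgals3 were the largest in that sum, with means of 755 and 517 CPM over the 10 libraries, and Krt20 had 205. Krt8, Krt19 and Cdh1 averaged 0.889, 0.424 and 2.49 CPM, so the sum is not a measure of carcinoma cell content. Macrophage markers summed to 2270 to 2960 and 2220 to 3090 CPM, T cell markers to 46.4 to 68.1 and 21.0 to 77.6 CPM, and NK cell markers to 45.4 to 88.9 and 36.2 to 71.2 CPM. At 0 in every library were Itgam among the 12 macrophage markers, Ms4a1 among the 6 B cell markers and Acta1 among the 19 muscle markers. The part of these differences in the results was not tested.

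Of the 9 members tested, 0 differed between the diets at an adjusted p under 0.05 (edgeR quasi-likelihood test), against 0.0541% of all genes tested (7 of 12929). None had an unadjusted p under 0.05 by edgeR, against 6.74% of all genes, and DESeq2 also called 0. In 0 of the 9 did the libraries of the diets stand clear of each other, against 1.65% of all genes. By log2 fold change, deficient over normal, 2 members were above 0 and 7 below, with a median of -0.07 against 0.0012 over all genes tested. The intervals of the fold changes show how large a difference these 10 tumours leave room for, and they are given with each gene.

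H2-K1, one of the classical heavy chains that present peptides to CD8 T cells, stood at 846, 1601, 677, 1218 and 1216 CPM in deficient replicates 1 to 5. The normal replicates 1 to 5 were at 1592, 1052, 1264, 980 and 1359 CPM. Deficient replicate 2 and normal replicate 1 were the highest and deficient replicates 3 and 1 the lowest, so the deficient tumours spanned the normal range on both sides. The means were 1112 ± 361 and 1250 ± 246 CPM (SD, n = 5 each), a log2 fold change of -0.17 (SE 0.22, 95% interval -0.66 to 0.32, adjusted p = 0.996 by edgeR).

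H2-D1, also a classical heavy chain, stood at 2004, 3658, 1333, 3056 and 2702 CPM in deficient replicates 1 to 5. Normal replicates 1 to 5 gave 3485, 2005, 2710, 2054 and 3808 CPM. Normal replicate 5 was highest and deficient replicate 3 lowest, with a 2.86-fold range over the 10 tumours. The log2 fold change was -0.14 (SE 0.27, 95% interval -0.74 to 0.46, adjusted p = 0.998 by edgeR).

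H2-T22, a non-classical heavy chain recognised by some gamma delta T cells, stood at 185, 240, 146, 216 and 215 CPM in deficient replicates 1 to 5. In normal replicates 1 to 5 it stood at 297, 233, 250, 194 and 249 CPM. Normal replicate 1 was the highest, normal replicate 4 lay below 3 of the deficient tumours, and the groups overlapped. The means were 200.3 ± 35.99 and 245 ± 37.1 CPM (SD, n = 5 each), a log2 fold change of -0.29 (SE 0.15, 95% interval -0.61 to 0.04, adjusted p = 0.799 by edgeR). The antisense gene A930015D03Rik covers 38.3% of the exonic bases of H2-T22.

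H2-T23 encodes Qa-1, which shows leader peptides of other heavy chains to the NK receptor CD94-NKG2A, and it was listed at 0 in all 10 libraries. A930015D03Rik covers 100% of its exonic length with intron, and no base of H2-T23 lies in that gene's exons. The same held for B2m, the light chain of every class I molecule, which lies inside Patl2, and for Psmb10, the third inducible proteasome subunit, inside Gm16156. Over the whole table, 91.7% of the 672 coding genes placed that way (616 genes) were at 0 in every library, against 19% of the 13978 coding genes with no overlap. These 3 genes are therefore given as listed at 0 and not as absent, and the authors' rule for reads in overlapping bodies is not stated in the labels.

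**Figure D1:**
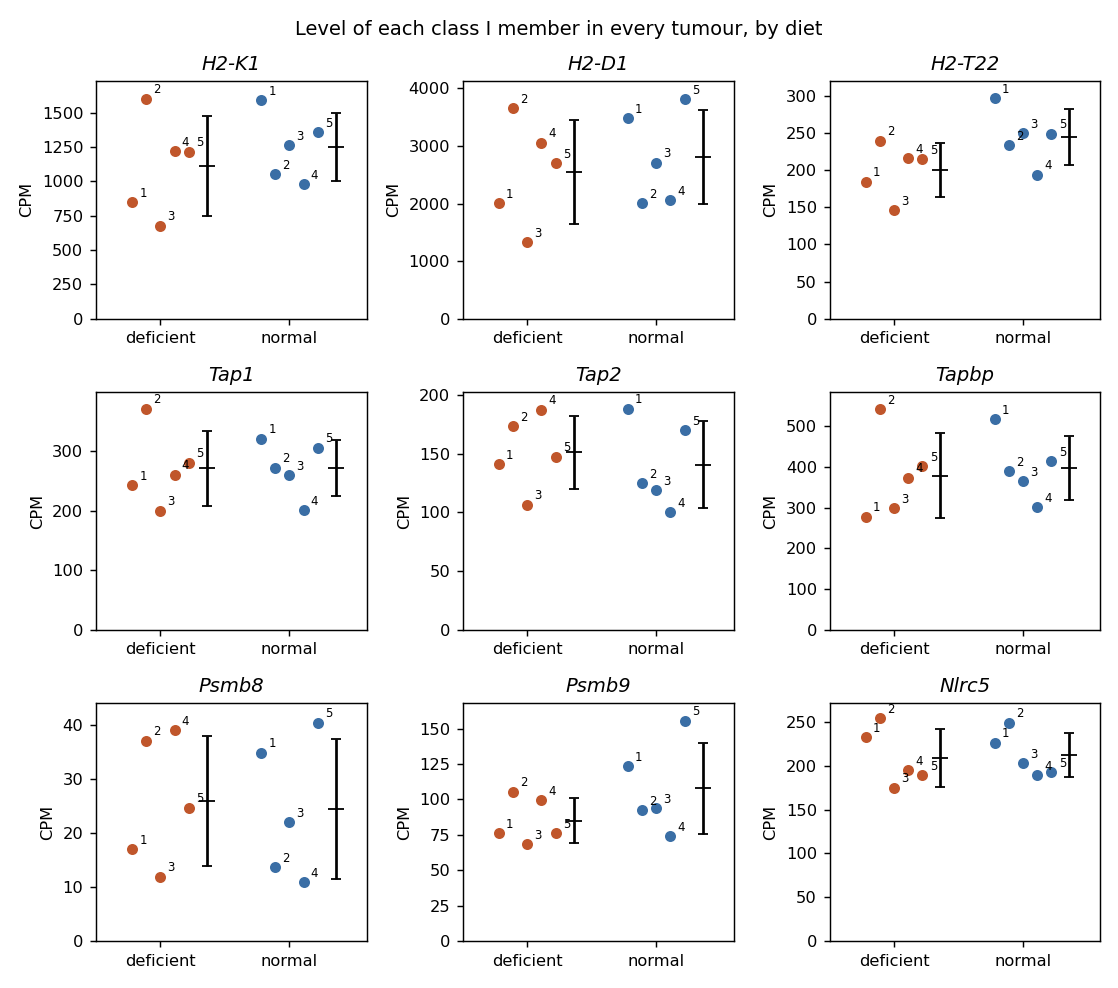
Level (CPM, linear axis from 0) of the 9 members with counts in each tumour, by diet; points carry the replicate number, and the bar beside each group is the mean ± SD (n = 5). In every panel the 2 diets overlap, and deficient replicate 3 or 1 or normal replicate 4 is the lowest point.

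Tap1, a subunit of the peptide transporter, stood at 242, 371, 200, 260 and 280.2 CPM in deficient replicates 1 to 5. The normal replicates 1 to 5 were at 320.5, 272, 259.6, 200.1 and 305 CPM. The lowest tumour of each diet was at nearly the same level, and the highest was deficient replicate 2. The means were 271 ± 63.4 and 271 ± 46.9 CPM (SD, n = 5 each), a log2 fold change of -0.0043 (SE 0.17, 95% interval -0.38 to 0.37, adjusted p = 0.999 by edgeR).

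Tap2, the partner subunit, stood at 141, 173, 106, 187 and 147 CPM in deficient replicates 1 to 5. Normal replicates 1 to 5 gave 188, 125, 119, 100.2 and 169.7 CPM. Normal replicate 1 and deficient replicate 4 were the highest and normal replicate 4 the lowest. The log2 fold change was 0.11 (SE 0.19, 95% interval -0.31 to 0.53, adjusted p = 0.998 by edgeR), and Gm15821 and Gm20496 cover 57.4% of its exonic length.

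Tapbp, which encodes tapasin, stood at 278, 543, 299, 374 and 402 CPM in deficient replicates 1 to 5. In normal replicates 1 to 5 it stood at 517, 389.9, 365, 301 and 414.5 CPM. The order of the tumours was close to that of Tap1, with deficient replicate 2 and normal replicate 1 highest. The log2 fold change was -0.07 (SE 0.19, 95% interval -0.49 to 0.35, adjusted p = 0.998 by edgeR).

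Of 12 other genes of loading and trimming in the endoplasmic reticulum, 11 were tested. All 11 had a log2 fold change above 0, with a median of 0.16, against 6502 of all 12929 genes tested. By edgeR 0 passed and 3 had an unadjusted p under 0.05, against 6.74% of all genes. Sec61a1, the translocon pore, had 0.46 (SE 0.12, adjusted p = 0.309 by edgeR). H13, a signal peptide peptidase that frees leader peptides, had 0.35 (SE 0.11) and the chaperone Hspa5 0.46 (SE 0.15), with adjusted p of 0.465 and 0.512 by edgeR. Canx, which holds new heavy chains, had 0.19 (SE 0.14), and Tapbpl, a relative of tapasin, was listed at 0.

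Psmb9, the inducible subunit that takes the place of the caspase-like Psmb6 in the proteasome core, stood at 76.1, 105, 68.4, 99.2 and 76.1 CPM in deficient replicates 1 to 5. The normal replicates 1 to 5 were at 123, 92.2, 93.6, 74.0 and 155 CPM. Normal replicates 5 and 1 were the highest of all, while normal replicate 4 lay among the low deficient tumours. The means were 85.0 ± 16.2 and 108 ± 32.03 CPM (SD, n = 5 each), a log2 fold change of -0.34 (SE 0.20, 95% interval -0.77 to 0.09, adjusted p = 0.855 by edgeR). Without normal replicate 5 the log2 fold change was -0.17, and without the 2 libraries with most Gapdh, deficient replicate 1 and normal replicate 5, it was -0.14.

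Psmb8, the inducible chymotrypsin-like subunit, was the most variable member. It stood at 17.0, 37.1, 11.9, 39.0 and 24.7 CPM in deficient replicates 1 to 5. Normal replicates 1 to 5 gave 34.9, 13.7, 21.97, 10.9 and 40.5 CPM. Each diet held high and low tumours, with a 3.70-fold range over all 10. The log2 fold change was 0.09 (SE 0.40, 95% interval -0.78 to 0.96, adjusted p = 0.998 by edgeR). Its counts, 214 to 904 per library, were the fewest of any tested member, and the antisense gene Gm20496 covers 55.5% of its exonic length.

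In cells under interferon, inducible subunits take the place of constitutive ones in newly built proteasomes, so each was set against the subunit it replaces within the same library. The ratio of Psmb9 to Psmb6 counts was lower in the deficient tumours: 1.09, 1.21, 1.26, 1.09 and 0.999 in deficient replicates 1 to 5. It was 1.58, 1.75, 1.42, 1.34 and 1.28 in normal replicates 1 to 5. Every normal tumour stood above every deficient tumour, although the nearest pair, normal replicate 5 and deficient replicate 3, differed little. The mean log2 ratios were 0.17 ± 0.13 and 0.55 ± 0.19 (SD, n = 5 each), a difference of -0.38 (exact two-sided permutation p = 0.00794, the smallest the design allows, and adjusted p = 0.0159 over 2 ratios). Neither gene alone passed the test across all genes: Psmb6 had a log2 fold change of 0.02 (SE 0.23, adjusted p = 0.998 by edgeR). Because the diets did not overlap in this ratio, leaving out any 1 library had to keep the sign and the pass, and adds no support. The difference then ran from -0.43 to -0.31. Without the 3 libraries richest in muscle it was -0.45 (exact permutation, adjusted p = 0.114, n = 3 and 4), where the smallest unadjusted p is 0.0286. Because Psmb9 was picked as a member with its fold change in these tumours known, the ratio is not independent of that choice.

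The ratio of Psmb8 to Psmb5 did not separate the diets. It was 0.695, 1.78, 0.642, 1.82 and 1.94 in deficient replicates 1 to 5, and 1.82, 0.675, 1.16, 0.562 and 0.537 in normal replicates 1 to 5. The mean log2 ratios were 0.30 ± 0.81 and -0.24 ± 0.76 (SD, n = 5 each; exact two-sided permutation p = 0.254, adjusted p = 0.254 over 2 ratios). Psmb5 itself, the constitutive chymotrypsin-like subunit, was at 75.4 CPM in normal replicate 5 and at 12.7 to 24.4 CPM in the other tumours. The ratio of Psmb10 to Psmb7 could not be formed, since Psmb10 was listed at 0.

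**Figure D2:**
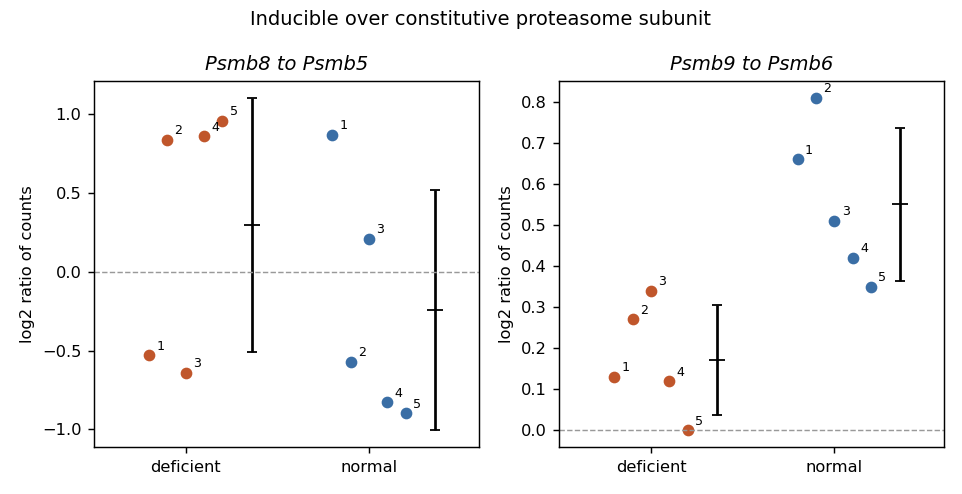
Log2 ratio of counts of the inducible to the constitutive subunit in each tumour (points with replicate numbers; mean ± SD beside them, n = 5; the axes differ between panels). For Psmb9 to Psmb6 the normal tumours run from 0.35 to 0.81 and all lie above the deficient ones, while for Psmb8 to Psmb5 the diets overlap.

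The rest of peptide production was tested gene by gene. Of the 14 constitutive core subunits tested, 5 had a log2 fold change above 0 and 9 below, with a median of -0.04, and 0 passed by edgeR. Of 6 genes of the inducible proteasome and its activators 5 were tested, 3 above 0 and 2 below, and 0 passed. Psme1, part of the activator induced by interferon gamma, had -0.11 (SE 0.15), Pomp, an assembly factor, -0.15 (SE 0.15), and Psme3, a nuclear activator, 0.32 (SE 0.12, adjusted p = 0.601 by edgeR). Of 9 cytosolic peptidases 5 lay above 0 and 4 below, with Lap3, a leucine aminopeptidase, at 0.13 (SE 0.13), and 0 passed.

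Nlrc5, the transactivator, was the steadiest member, at 233, 254, 175, 195 and 189 CPM in deficient replicates 1 to 5. In normal replicates 1 to 5 it stood at 226, 249, 203, 189 and 193 CPM. The range over all 10 tumours was 1.46-fold, and the groups covered nearly the same span. The log2 fold change was -0.02 (SE 0.13, 95% interval -0.30 to 0.26, adjusted p = 0.998 by edgeR), which was the narrowest interval of the 9.

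Inducers of the set, and other genes they induce, did not pass either. Irf1, an interferon-induced factor, had a log2 fold change of 0.03 (SE 0.26), with deficient replicate 2 at 205 CPM and the other tumours at 71.9 to 154 CPM. For Ifng the libraries held only 2 to 24 counts each, too few to test. Of the 14 listed genes induced by interferon gamma 11 were tested, 10 above 0 and 1 below with a median of 0.13, and 0 passed by edgeR. Over all genes tested, 6502 of 12929 lay above 0. Cd274, which encodes PD-L1, had 0.53 (SE 0.26, adjusted p = 0.766 by edgeR), and its highest tumour was again deficient replicate 2, at 109 CPM. Among 18 tested transcription factors of class I genes 10 lay above 0 and 8 below, with 0 passing, and Ezh2, a repressor of the set, had -0.24 (SE 0.10, adjusted p = 0.697 by edgeR).

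**Figure D3:**
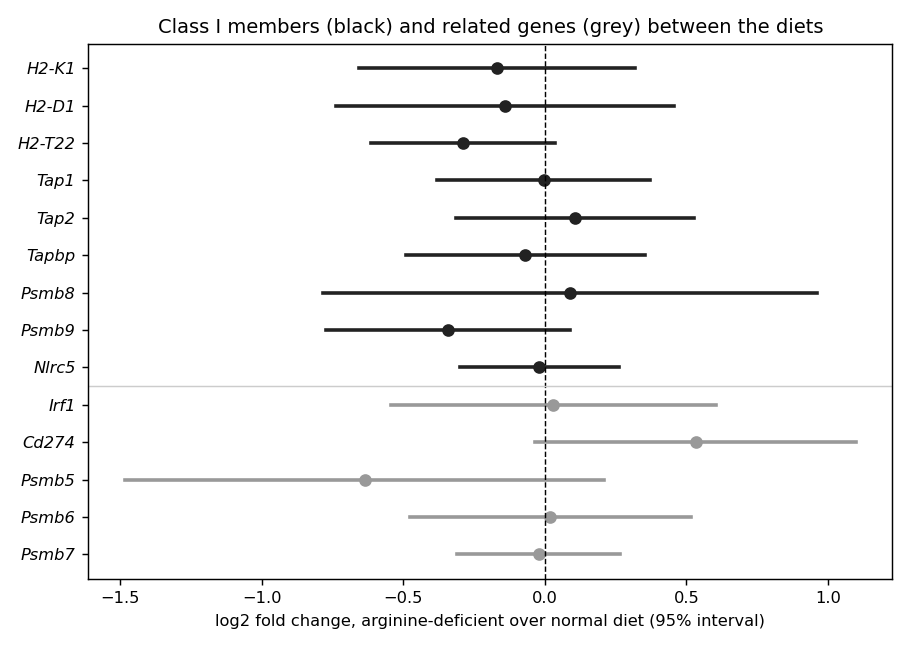
Log2 fold change, deficient over normal diet, with 95% interval from the edgeR fit, for the 9 members (black) and 5 related genes (grey); the dashed line marks no difference. Every interval of a member crosses 0, from the narrowest, Nlrc5 (-0.30 to 0.26), to the widest, Psmb8 (-0.78 to 0.96).

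Among the other heavy chains and the light chain none passed. Of 15 listed, 13 had a row and 10 were tested, 4 with a log2 fold change above 0 and 6 below, with a median of -0.15 and 0 passing by edgeR. H2-Q10, a secreted heavy chain known from liver, had -0.29 (SE 0.25), and Mr1, which presents vitamin metabolites, -0.26 (SE 0.19). H2-T24 was listed at 0 in all libraries. Of the receptors that read class I, 8 of 10 were tested and 0 passed, and Cd8a and Cd8b1, the chains of the CD8 co-receptor, had -0.13 (SE 0.44) and -0.23 (SE 0.53).

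Across genes, levels were compared per kilobase of exon. H2-D1 averaged 1040 CPM per kilobase over the 10 tumours, H2-K1 402, Tapbp 107, H2-T22 65.2, Tap1 49.5, Tap2 38.6, Psmb9 26.3, Nlrc5 24.8 and Psmb8 7.44. Neighbours from Tapbp downwards overlapped in range over the tumours, except that every tumour's Psmb8 lay below all values of the others. H2-K1 reached 545 and H2-D1 went down to 517 CPM per kilobase, so these overlapped too. When only exonic bases outside other gene bodies were counted as length, Tapbp stood at 160, H2-T22 at 106, Tap2 at 90.5, Tap1 at 51.5 and Psmb8 at 16.7 CPM per kilobase, which put Tap2 above Tap1.

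Tumours of each diet differed widely in the whole set. In deficient replicate 3 and normal replicate 4 all 9 stood below their own mean over the 10 tumours, by a median of -0.45 and -0.33 on the log2 CPM scale. In deficient replicate 2 and normal replicate 1 all 9 stood above it, by a median of 0.48 and 0.44. Both diets therefore held a tumour with a high set and one with a low set. Both low tumours were among the 3 richest in muscle transcripts, deficient replicate 3 at 8795 CPM and normal replicate 4 at 794 CPM. Deficient replicate 4, with the second most, had a median of 0.09 and 5 of 9 members above their mean. Deficient replicate 1, with the fewest (11.2 CPM), had a median of -0.30 and 1 of 9 above. Whether muscle content bears on the level of the set was not tested. NK cell marker sums were highest in the 2 high tumours, 88.9 and 71.2 CPM. They came next in deficient replicate 3, at 67.0 CPM, and were lowest in normal replicate 5, at 36.2 CPM, where 8 of 9 members stood above their mean.

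By permutation, 6 of the 9 members passed with the GC slope of the library by Pearson's r and 5 by Spearman's rho. That slope was fitted to the tested genes, these members among them, and all 9 are richer in GC than the median. Their p-values therefore do not set the members apart from other GC-rich genes. Of 11470 coding genes, 8.37% to 24.2% had an r at least that of a member that passed by r. An r of at least 0.5 with the GC slope was common, in 33.2% of 11470 coding genes and in 57.7% of those with GC over 50%. The share of all genes that would pass the same test was not computed. Over the 10 libraries H2-D1 had a Pearson r of 0.90 with that slope and Spearman's rho of 0.85 (permutation p = 0.00025 and 0.0029, adjusted p = 0.00112 and 0.0087 over 9 relations). Psmb8 had r of 0.88 and rho of 0.94 (permutation p = 0.00012 and 0.00017, adjusted p = 0.00108 and 0.00153), Tap2 0.81 and 0.85 (0.00365 and 0.00276, adjusted 0.0109 and 0.0087). H2-K1 had r of 0.74 and rho of 0.72 (permutation p = 0.0139 and 0.0231, adjusted p = 0.0312 and 0.0417), falling to r of 0.51 without the 2 libraries of most extreme slope. Without those 2 libraries r was 0.77 in H2-D1, 0.88 in Psmb8, 0.82 in Tap2, 0.77 in Psmb9, 0.71 in Tap1, 0.48 in H2-T22, 0.51 in Tapbp and 0.15 in Nlrc5. Psmb9 had r of 0.70 and rho of 0.83 (permutation p = 0.0242 and 0.00484, adjusted p = 0.0419 and 0.0109). Tap1, with 0.69 and 0.68, passed by r but not by rho (permutation p = 0.028 and 0.0353, adjusted p = 0.0419 and 0.0529). The other 3 members passed by neither. H2-T22 had r of 0.65 and rho of 0.53 (permutation p = 0.043 and 0.123, adjusted p = 0.0553 and 0.138), and Tapbp 0.51 and 0.61 (permutation p = 0.129 and 0.0673, adjusted p = 0.145 and 0.0866). Nlrc5 had r of 0.17 and rho of 0.19 (permutation p = 0.639 and 0.608, adjusted p = 0.639 and 0.608). As deviations from diet means r was 0.91, 0.89, 0.82, 0.78 and 0.17 in H2-D1, Psmb8, Tap2, H2-K1 and Nlrc5. All 9 members have transcripts richer in GC (51.8% to 60.5%) than the median of 50.5% over 11470 coding genes. Of those genes 8.37% had an r at least that of H2-D1 and 20.9% at least that of H2-K1, so such an r is common in these libraries. With each library's slopes on GC content and gene length in the model, 0 members passed by edgeR, and the log2 fold change was -0.31 in H2-T22 (edgeR, adjusted p = 0.176) and -0.34 in Psmb9 (edgeR, adjusted p = 0.14).

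**Figure D4:**
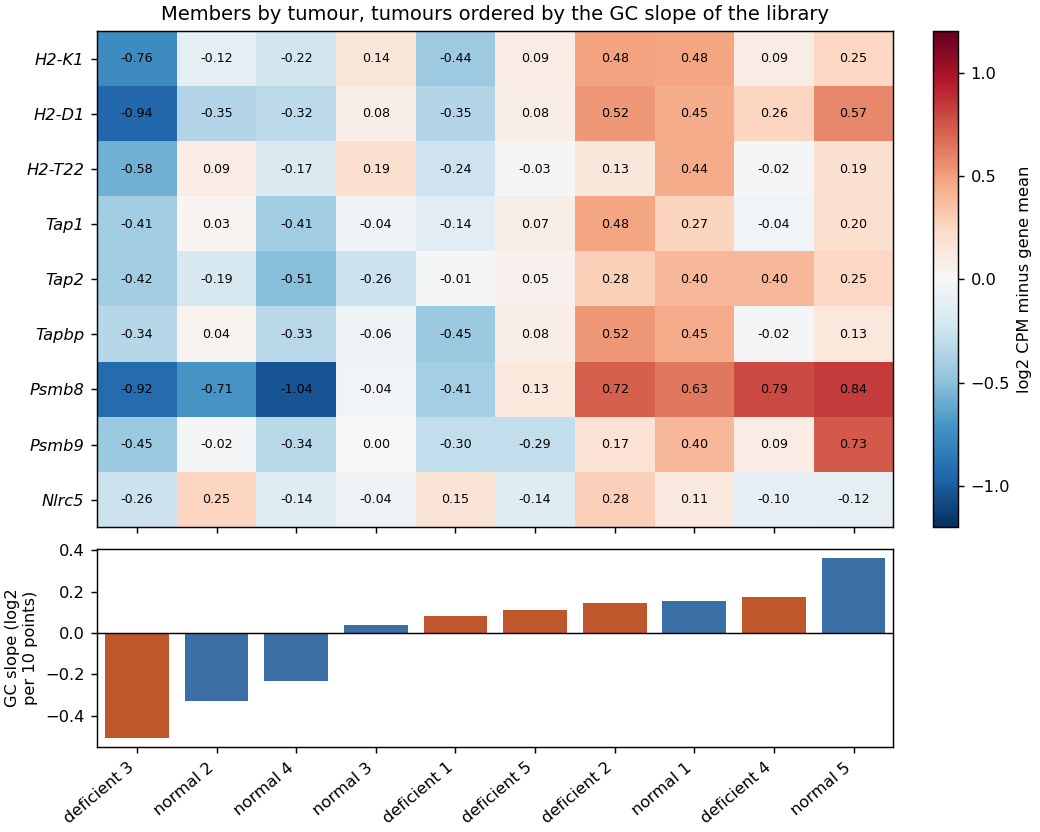
Log2 CPM of each member minus its own mean over the 10 tumours (rows, colour and printed value), with tumours in columns ordered by the GC slope of the library, which the bars below show (orange deficient, blue normal). H2-D1 and Psmb8 shift most clearly from blue to red along that order, Tapbp less clearly (r of 0.51) and Nlrc5 least (r of 0.17). Deficient replicate 2 and normal replicate 1 are above the mean in every row.

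No relation of the members to the transactivator itself passed. Of the 8 relations of other members with Nlrc5, 0 passed by Pearson's r or by Spearman's rho over the 10 libraries (permutation test, adjusted over the 8). Tap1 with Nlrc5 had the highest r, 0.61, and rho of 0.55 (permutation p = 0.0608 and 0.105, adjusted p = 0.467 and 0.327), with r of 0.46 without the 2 libraries farthest from the median of Nlrc5. H2-K1 with Nlrc5 had r of 0.40 and rho of 0.47 (permutation p = 0.253 and 0.179, adjusted p = 0.507 and 0.327), and 0.34 without those 2. Tapbp with Nlrc5 had r of 0.47 and rho of 0.39 (permutation p = 0.174 and 0.264, adjusted p = 0.467 and 0.351), and 0.20 without those 2. Taken as deviations from diet means these were 0.61, 0.40 and 0.46, close to the pooled values.

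The genes most like each member were found by Pearson r of log2 CPM over the 10 libraries among 11469 other coding genes averaging at least 2 CPM, as a description of libraries that share a GC slope. For H2-K1 the nearest were the heavy chains H2-Q4 (r of 0.981) and H2-Q1 (0.97), with H2-D1 in place 7 (0.951). In the other direction H2-K1 was only in place 78 for H2-D1, whose nearest was Urgcp (0.99). H2-Q4 was also in place 3 for H2-D1 (0.983), and these heavy chains are so alike in sequence that reads could be split between them. For both Tap1 and Tapbp the nearest was Tceanc2 (0.95 and 0.942). The 5 nearest to Tap1 also held H2-M3 (0.94), the interferon-induced Parp10 (0.932), Apol9b (0.929) and Tapbp (0.918). Those of Tapbp also held Tap1 (0.918), Dusp2 (0.906), H2-K1 (0.898) and Zfp27 (0.88). Psmb8 was in place 6 for Tap2 (0.93). Psmb8, Psmb9, H2-T22 and Tap2 had no gene of the class I lists among their 5 nearest, and neither had Nlrc5, whose nearest was Xdh (0.92). The adjoining genes Tap1 and Psmb9, which share the promoter printed above, had r of 0.723, which put Psmb9 in place 760 for Tap1 and Tap1 in place 1199 for Psmb9.

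On mm10, H2-K1 (ENSMUSG00000061232.16) spans positions 33996017 to 34000347 of chromosome 17, H2-D1 (ENSMUSG00000073411.12) 35262730 to 35267499 and H2-T22 (ENSMUSG00000056116.18) 36037128 to 36042747. On the same chromosome, Tapbp (ENSMUSG00000024308.15) spans 33915899 to 33929292, Psmb9 (ENSMUSG00000096727.3) 34181987 to 34187764, Tap1 (ENSMUSG00000037321.17) 34187553 to 34197225, Psmb8 (ENSMUSG00000024338.15) 34197721 to 34201454 and Tap2 (ENSMUSG00000024339.12) 34203527 to 34216321. H2-T23 (ENSMUSG00000067212.8) lies there at 36029773 to 36032855, and Nlrc5 (ENSMUSG00000074151.13) on chromosome 8 at 94434356 to 94527272. These are bodies of protein-coding genes, exons and introns together.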

How the data were processed

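The values are unnormalized read counts for each gene in 10 tumour libraries, as the authors deposited them. FastQC, STAR, featureCounts and mm10 are named per the submitters' processing notes, and their versions, strand setting and treatment of reads with several matches are not stated there. Columns were matched through the number in each sample's description, and titles beginning Arg and Control were read as the diet groups the design text describes. The members and lists were chosen with earlier results of these data known. Symbols came from GENCODE M21 (21379 identifiers matched with their version, 437 with another, 33 without symbol), and promoter sequences from RefSeq, GRCm38.p6.

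Diets were compared with the quasi-likelihood test of edgeR 4.0.16 in R 4.3.3, with TMM factors and filterByExpr defaults (minimum count 10, minimum total 15), diet as the only term, Benjamini-Hochberg over 12929 genes. Each SE was taken as the size of the fold change (log2) divided by the root of its F value. Named genes were all members, up to 4 of smallest p per list, a fixed panel, and the 5 nearest by r. Log2 CPM used a prior count of 2, correlations 100000 permutations. Some planned relations are not reported here, and p-values were adjusted over those that are. The edgeR step was tested on simulated data. Alternatives were other size factors and filters, DESeq2 1.42.0, limma 3.58.1 voom, a replicate block, libraries left out and GC slopes. The labels give no animal numbers, so p-values measure the spread between these samples, taken as separate mice.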

Additional observations from a re-analysis of the deposited data

How the results depend on the processing

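No member was called under any of the 20 alternatives to the diet comparison. The number of genes called over the whole table, 7, was 131 by DESeq2, 373 by limma voom with sample weights, 1 with a replicate block, 18 without the 3 libraries richest in muscle, 0 without the 2 with most Gapdh, 68 with GC and length slopes as covariates, and 0 to 16 with 1 library left out. It was 0 without normal replicate 1 or 3, 2 without deficient replicate 1, 2 or 5 or normal replicate 2, 16 without deficient replicate 3 and 15 without normal replicate 5. Without the 2 libraries with most Gapdh 907 genes had an unadjusted p under 0.05 by edgeR.

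H2-K1, H2-T22, Psmb9 and Tap2 kept their direction under all 20, although with 1 library left out H2-K1 ran from -0.338 (deficient replicate 2) to -0.0314 (deficient replicate 3) and Tap2 from 0.00409 (normal replicate 4) to 0.234 (normal replicate 1). With sample weights in voom the log2 fold changes turned to 0.0735 in H2-D1, 0.124 in Tap1, 0.0777 in Tapbp and 0.00425 in Nlrc5. Without the 2 libraries with most Gapdh they turned to 0.0657 in H2-D1, 0.0762 in Tap1 and 0.0371 in Tapbp, without the 3 richest in muscle to 0.0461 in Tap1, -0.077 in Psmb8 and 0.0556 in Nlrc5, and with no filter to 0.000144 in Tap1. With 1 library left out the ranges were -0.308 to 0.0239 in H2-D1, -0.146 to 0.0905 in Tap1, -0.235 to 0.043 in Tapbp, -0.107 to 0.345 in Psmb8 and -0.10 to 0.0454 in Nlrc5. The cause was not tested.

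The Psmb9 to Psmb6 difference was -0.45 without the 3 libraries richest in muscle (adjusted p = 0.114, exact permutation) and -0.38 with a replicate block (adjusted p = 0.125, exact permutation), where the smallest unadjusted p is 0.0625. With the GC slope's line removed it was -0.38 (adjusted p = 0.0159, exact permutation). Same-numbered libraries shared no clear deviation (r of 0.13, -0.35, -0.0061, 0.13 and 0.18), so the numbers were not taken as pairs.

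Of the correlations with Nlrc5, without the 3 libraries richest in muscle r turned to -0.0512, -0.243, -0.0366, -0.268 and -0.126 for H2-K1, H2-D1, H2-T22, Psmb8 and Psmb9. With 1 library left out the ranges were -0.0661 to 0.48 for H2-D1 and -0.04 to 0.414 for Psmb8. None passed under any of the 16 alternatives.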

Other observations

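Taken as deviations from the line on the library's GC slope, a comparison chosen after the data were seen, the members with Nlrc5 had r of 0.07 (Psmb8) to 0.70 (Tap1), and 0 of the 8 relations passed (permutation adjusted p = 0.201 for Tap1, n = 10).

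All 7 tested markers of NK cells, which are held back by class I, had a log2 fold change above 0, with a median of 0.32, and 0 passed by edgeR. Over all genes tested, 6502 of 12929 lay above 0. Of the 7 markers, named after their values were seen, Ncr1 had 0.33 (SE 0.24) and Gzma, a granule protease that T cells also make, 0.51 (SE 0.39). Erythrocyte markers summed to 55.9 to 106 CPM in deficient tumours. In normal replicates 1 and 5 they summed to 612 and 523 CPM, and in normal replicates 2, 3 and 4 to 104, 118 and 203 CPM. Of the 4 tested 0 passed by edgeR, with a smallest adjusted p of 0.281 (Hbb-bs and Hbb-bt).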
